A study of Mus musculus with 8 samples.

Results

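The unfolded protein response (UPR) and endoplasmic reticulum (ER) chaperone genes examined here are 30 genes that detect misfolded protein in the ER, fold it, or send it for degradation. They were chosen by symbol, as the rows of the count table that map to a list of 30 names, out of 43432 gene IDs in the table. The rule uses names alone, although the list was drawn up with earlier results of these data known. All 30 were among the 16241 genes with enough counts to be tested.

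The study compared lenses of mouse embryos at embryonic day 14.5 by sequencing of polyadenylated RNA. The CKO group was 4 libraries labelled Mettl3 CKO, a conditional knockout of Mettl3, which encodes the catalytic subunit of the enzyme that methylates adenosines in mRNA. The control group was 4 libraries whose genotype is given only as control. Each group has replicates a to d. The labels do not name the Cre driver, the alleles the controls carry, or the number of lenses or animals in a library, so the p-values rest on the spread between libraries that may be technical in part.

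Misfolded protein in the ER lumen is sensed by the transmembrane proteins IRE1, ATF6 and PERK. IRE1, encoded by Ern1, splices the mRNA of Xbp1 so that it encodes an active transcription factor. ATF6 is cut in the Golgi to release a transcription factor, and PERK slows translation and favours that of Atf4. Targets of these factors include BiP (Hspa5), the main Hsp70 of the ER, its J-domain partners and nucleotide exchange factors, the disulfide isomerases, and the machinery that returns misfolded protein to the cytosol for ubiquitination and proteasomal breakdown, called ER-associated degradation. In the lens, ER stress has been described in mouse cataract models that carry misfolding proteins, and fibre cells dismantle their ER as they mature.

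Library totals were between 19110170 and 56098211 counts. Levels are given as CPM, library-size-scaled counts (edgeR, TMM factors), unless stated per kilobase of exon. Mettl3 had 13.4, 15.9, 8.11 and 12.2 CPM in CKO replicates a to d, against 28.4, 25.4, 23.8 and 21.4 CPM in control replicates a to d. In edgeR's quasi-likelihood test its log2 fold change was -1.02 ± 0.15 (SE; adjusted p = 0.002588), and the exact two-sided permutation p was 0.0286, the smallest that 4 against 4 libraries can give. All 12 lens fibre markers were measured, and they summed 173100, 159900, 124400 and 131800 CPM in CKO replicates a to d. In control replicates a to d their sums were 159700, 194200, 196800 and 182600 CPM. The median log2 fold change of these markers was -0.31, and 1 of the 12 was lower, where 4.01% of all genes tested were lower. Macrophage markers were higher in 3 of 7 cases, where 6.5% of all genes tested were higher. These 7 markers summed 99.0, 106, 48.1 and 44.0 CPM in CKO replicates a to d. In control replicates a to d their sums were 37.9, 43.5, 42.4 and 29.5 CPM. Retinal markers summed highest in CKO c (149.8 CPM) and in control a (70.3 CPM). Pigment cell markers summed 44.1, 24.5, 42.9 and 30.2 CPM in CKO replicates a to d. In control replicates a to d their sums were 25.6, 28.1, 28.3 and 29.96 CPM. Their median log2 fold change was 1.41 over 5 tested, 0 passed, and Rpe65 was at 0 in every library. Erythroid markers summed 435.7 to 4006 CPM in CKO and 566.6 to 2163 CPM in control libraries. Of the lens epithelium markers 1 was higher and 1 lower, and 1 periocular mesenchyme marker was lower. No erythroid, endothelial or surface ectoderm marker passed. The part of other cell types in the results below was not tested, beyond a fit without control a and CKO c. In bulk lenses, fewer cells of a type and less RNA per cell cannot be told apart.

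Many UPR genes share a promoter motif, the ER stress response element, which ATF6 and XBP1 bind together with NF-Y. The 30 genes were listed by name as UPR and ER chaperone genes, so matches among them are not independent of that choice. The letters of the element are CCAAT, 9 bases of any kind, then CCACG. RefSeq windows (GRCm38.p6) of 250 bases before and 50 bases after each start were searched on both strands, and 24 of the 30 genes had a window. The element was in 9 of these 24 genes (Calr, Canx, Creld2, Derl3, Dnajc3, Hsp90b1, Hspa5, Pdia6 and Syvn1), against 39 of 32851 windows of all genes (0.119%). The windows of all genes include those of these 24. The element II form (ATTGG, 1 base of any kind, then CCACG) was in Herpud1 and Dnajb11, against 0.0365% of all windows, and in Dnajb11 it lay after the start. The UPR element (TGACG followed by TGG) was in 0 of 24 genes and in 0.676% of all windows. CCAAT and CCACG searched singly, which the full element contains by construction, were in 37.4% and 32.8% of all windows. A match is a description of these letters, and no match says nothing about binding outside them. The stretches, 5′ to 3′ on the strand of the gene with the elements in capitals, are those of Hspa5 and Herpud1, which moved in opposite directions in CKO lenses, and of 6 genes that hold the element and did not pass the test. In Calr and in the second match of Hsp90b1 the element reads on the opposite strand, so that it appears as CGTGG, 9 bases, ATTGG. The Hspa5 stretch is kept short because it lies within an exon of a longer annotated transcript.
Hspa5, chr2:34772020-34772048, plus strand: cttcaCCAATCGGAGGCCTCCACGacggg
Herpud1, chr8:94386362-94386402, plus strand: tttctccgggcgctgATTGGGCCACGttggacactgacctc
Hsp90b1, chr10:86705518-86705671, minus strand: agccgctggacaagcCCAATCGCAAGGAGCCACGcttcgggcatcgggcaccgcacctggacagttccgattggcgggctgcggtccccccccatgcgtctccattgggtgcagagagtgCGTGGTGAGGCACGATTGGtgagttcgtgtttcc
Pdia6, chr12:17266476-17266524, plus strand: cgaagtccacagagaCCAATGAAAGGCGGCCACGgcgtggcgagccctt
Canx, chr11:50325785-50325833, minus strand: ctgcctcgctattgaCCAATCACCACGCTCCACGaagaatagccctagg
Dnajc3, chr14:118937812-118937860, plus strand: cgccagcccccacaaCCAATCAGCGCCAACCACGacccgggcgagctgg
Syvn1, chr19:6046517-6046565, plus strand: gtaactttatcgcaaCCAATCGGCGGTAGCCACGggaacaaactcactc
Calr, chr8:84847060-84847108, minus strand: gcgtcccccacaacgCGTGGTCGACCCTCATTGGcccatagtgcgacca

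In CKO lenses the chaperone Hspa5, its nucleotide exchange factor Sil1 and the disulfide isomerase Pdia4 were higher, and Edem3 and Herpud1, both of ER-associated degradation, were lower. The other 25 genes did not pass the test, among them the sensors and the chaperones Hsp90b1, Calr and Canx. The 5 genes that passed are 16.7% of the 30, while 10.5% of all 16241 genes tested passed (1055 higher and 651 lower). A background share of 10.5% comes to about 3 of 30 genes, so the count of 5 is close to it. By direction, 3 of 30 were higher, against 6.5% of all genes, and 2 of 30 were lower, against 4.01%. The median log2 fold change of the 30 genes was -0.06, beside -0.03 over all genes tested, with 13 of the 30 fitted above 0 and 17 below. The group did not move one way. DESeq2 called the same 5 genes, and 16.8% of the 14666 genes it gave an adjusted p.

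**Figure D1:**
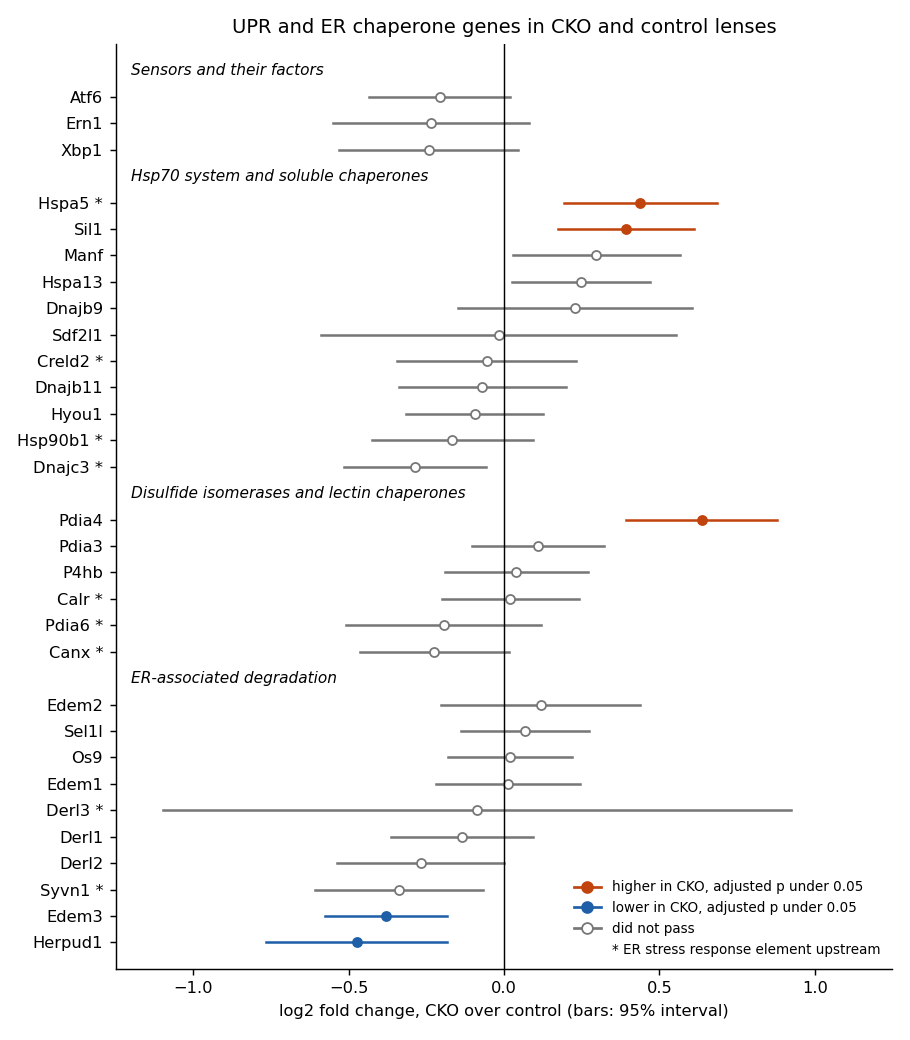
Log2 fold change, CKO over control, of each of the 30 genes (points) with its 95% interval (bars), grouped by role; filled points passed at an adjusted p under 0.05 in edgeR, and an asterisk marks genes with an ER stress response element before the start. Hspa5, Sil1 and Pdia4 lie to the right of 0 with filled points, Edem3 and Herpud1 to the left, and the genes with the element lie on both sides of 0.

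Most of the genes that did not pass had bounded fold changes. Of these 25, 21 had a 95% interval of the fold change within 1.5-fold in both directions. The intervals of Dnajb9, Sdf2l1, Syvn1 and Derl3 reached past 1.5-fold. The common biological coefficient of variation was 23.1%, and the standard errors of the 30 log2 fold changes were between 0.09 and 0.25, apart from Derl3, the least abundant.

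The groups of libraries did not overlap for 3 genes that were higher in CKO (Hspa5, Pdia4 and Sil1, against 8.96% of all genes tested) and for 2 that were lower (Edem3 and Dnajc3, against 7.38%). At an unadjusted p under 0.05, 10 of the 30 genes passed, 5 in each direction, beside 26.5% of all genes (13.9% higher and 12.6% lower).

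How many of the 30 genes passed depended on which libraries and terms entered the fit, as it did for all genes. With CKO a, b, c or d left out, 2, 1, 3 and 1 of the 30 passed, against 6.76%, 6.9%, 5.34% and 4.1% of all genes. With control a, b, c or d left out, 2, 1, 6 and 1 passed, against 8.58%, 4.53%, 16.1% and 3.15%. Without the term for the pairs of replicates 3 passed (8.42% of all genes). Without both control a and CKO c 1 passed (2.85%), and with trends on length and GC content removed 7 passed (15.6%). In each of these fits Pdia4 was among the genes that passed.

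The sensors and the factors they act on did not pass. Xbp1, whose spliced mRNA encodes a UPR transcription factor, had 47.1, 63.1, 45.2 and 45.1 CPM in CKO replicates a to d, against 50.1, 61.8, 61.8 and 62.5 CPM in control replicates a to d. CKO b was as high as the upper controls, and control a lay near the other CKO libraries, so the groups overlapped. Its log2 fold change was -0.24 ± 0.13 (SE; edgeR adjusted p = 0.2686). Gene-level counts do not separate spliced from unspliced Xbp1. Atf6 had 42.3 ± 2.92 CPM in CKO and 49.1 ± 4.91 CPM in control lenses, and Ern1 had 13.1 ± 1.58 CPM in CKO and 15.5 ± 2.24 CPM in control lenses (SD, n = 4 each). Their log2 fold changes were -0.21 for Atf6 and -0.24 for Ern1, with edgeR adjusted p-values of 0.2317 and 0.3288. Under edgeR 0 of these 3 genes passed, where 10.5% of all genes did. In addition, 0 had an unadjusted p under 0.05, where 26.5% of all genes did. DESeq2 and limma-voom also called 0, against 16.8% and 11.9% of all genes. With only 3 genes, counts of 0 do not stand apart from these shares.

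Hspa5 (ENSMUSG00000026864, chr2:34771970-34777547, plus strand), which encodes BiP, had 556, 567, 594 and 616 CPM in CKO replicates a to d, against 354, 375, 515 and 499.5 CPM in control replicates a to d. Every CKO library was above every control library, and controls c and d were nearer to the CKO libraries than controls a and b. The log2 fold change was 0.44 ± 0.11 (SE; edgeR adjusted p = 0.03196). Within the pair of replicates a and b it was 0.60 (adjusted p = 0.008788), and within the pair c and d it was 0.29 (adjusted p = 0.2826). When each library was left out in turn the value stayed between 0.38 and 0.48. The call held without CKO c or without control c and was lost without any of the other 6, with edgeR adjusted p-values of up to 0.122. Without a term for the pairs of replicates it was 0.42 (adjusted p = 0.08156).

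Sil1 (ENSMUSG00000024357, on chromosome 18), the exchange factor that releases ADP from BiP, had 29.1, 29.8, 33.1 and 35.4 CPM in CKO replicates a to d, against 22.6, 24.1, 27.5 and 22.7 CPM in control replicates a to d. The groups did not overlap, and control c was the closest control to the CKO libraries. Sil1 rose by a log2 fold change of 0.39 ± 0.10 (SE; edgeR adjusted p = 0.03125), with 0.32 in replicates a and b and 0.49 in replicates c and d. With a library left out it was between 0.33 and 0.44, and it passed only without control c (adjusted p otherwise up to 0.126 in edgeR). Sil1 overlaps antisense genes that have 0 counts in this table.

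Hyou1, a large Hsp70-related protein that also exchanges nucleotide on BiP, did not follow Hspa5 and Sil1. It had 139 ± 12.2 CPM in CKO and 149 ± 11.4 CPM in control lenses (SD, n = 4 each), a log2 fold change of -0.10 with a 95% interval from -0.31 to 0.12. Hspa13, an Hsp70-like ATPase of microsomes, had 73.5, 58.6, 75.6 and 73.8 CPM in CKO replicates a to d, against 51.0, 53.2, 70.0 and 64.0 CPM in control replicates a to d. CKO b was the low library of its group and lay among the controls. Its log2 fold change of 0.25 ± 0.10 did not pass (edgeR adjusted p = 0.1453), and it passed when libraries were scaled by their totals alone.

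Manf, an ER-resident protein that binds BiP and is secreted under stress, had 92.9, 91.0, 71.1 and 85.4 CPM in CKO replicates a to d, against 61.6, 62.7, 78.6 and 74.6 CPM in control replicates a to d. CKO c was below controls c and d, and the other CKO libraries were above all controls. Over all libraries the log2 fold change was 0.30 ± 0.12 (SE; edgeR adjusted p = 0.1502), with 0.55 in replicates a and b (adjusted p = 0.01228) and 0.07 in replicates c and d. Manf shares 4.14% of its exon length with Dcaf1 on the opposite strand, and whether strand was used in counting is not stated.

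The J-domain partners of BiP were not called. Dnajc3, which delivers clients to BiP and also inhibits PERK, had 89.7, 87.9, 87.7 and 86.7 CPM in CKO replicates a to d, against 89.8, 98.0, 123 and 122 CPM in control replicates a to d. Controls c and d were high, control a lay just above the highest CKO library, and the groups were apart. Dnajc3 had a log2 fold change of -0.29 ± 0.10 (SE; edgeR adjusted p = 0.1049). Dnajb9 had 12.4 ± 2.05 CPM in CKO and 10.5 ± 2.08 CPM in control lenses, and Dnajb11 had 101 ± 8.28 CPM in CKO and 106 ± 15.2 CPM in control lenses (SD, n = 4 each). Their log2 fold changes were 0.23 and -0.07, with overlapping groups.

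The remaining soluble chaperones differed by less than the spread between libraries. Hsp90b1, the Hsp90 of the ER, had 399, 356, 296 and 324 CPM in CKO replicates a to d, against 355, 383, 417 and 384 CPM in control replicates a to d. CKO c and d were below every control and CKO a was above 3 of the 4 controls. Over all libraries the log2 fold change was -0.17 ± 0.12 (SE; edgeR adjusted p = 0.4025), with 0.01 in replicates a and b and -0.33 in replicates c and d. Creld2, an ER protein induced by ER stress, had a log2 fold change of -0.06 and Sdf2l1, a partner of Dnajb11, of -0.02. Both changed sign when single libraries were left out. Of the 11 genes of the Hsp70 system and soluble chaperones, 2 were higher and 0 lower in CKO by edgeR, DESeq2 and limma-voom alike. In edgeR 6.5% of all genes were higher and 4.01% lower, and in either direction DESeq2 called 16.8% and limma-voom 11.9%. At an unadjusted p under 0.05, 4 of the 11 were higher and 1 lower, against 13.9% and 12.6% of all genes. Their median log2 fold change was -0.02 over all libraries, 0.08 in replicates a and b and 0.07 in replicates c and d.

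**Figure D2:**
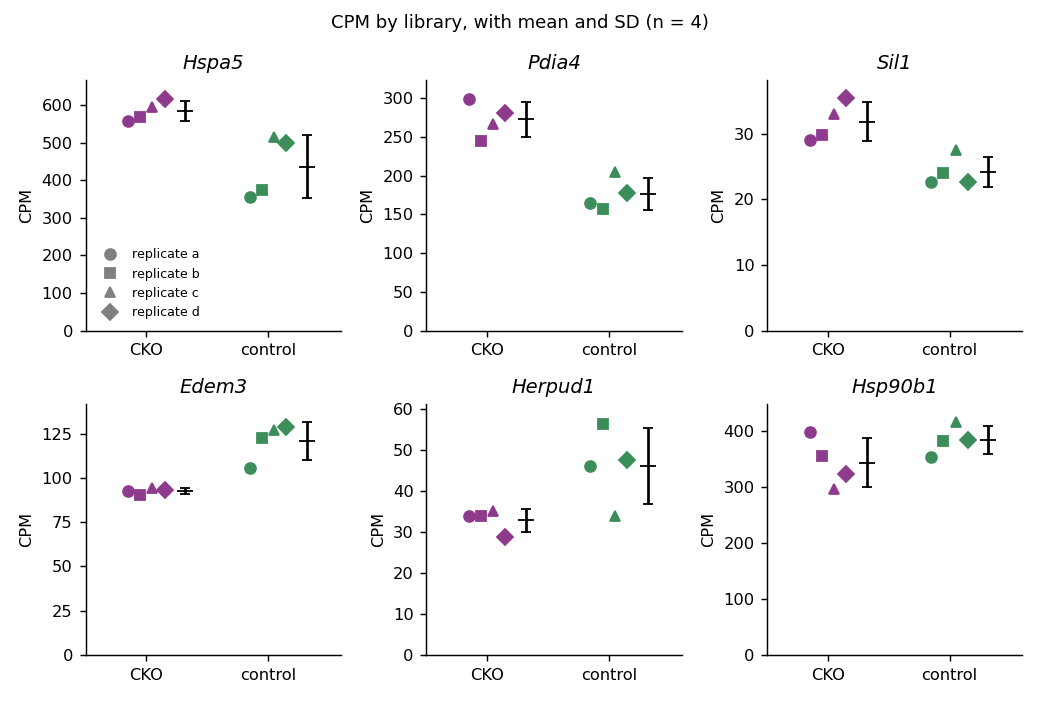
CPM of 6 genes in each library (points, marked by replicate), with the mean and SD of the 4 libraries of each group (black); the vertical axes start at 0. Hspa5, Pdia4 and Sil1 have every CKO library above every control, Edem3 has every CKO library below, Herpud1 overlaps through control c, and Hsp90b1 overlaps widely.

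Pdia4 (ENSMUSG00000025823, chr6:47796141-47813430, minus strand), a disulfide isomerase with several thioredoxin-like domains, had the largest log2 fold change of the 30 genes in size. It had 298, 244, 267 and 281 CPM in CKO replicates a to d, against 164, 157, 205 and 177 CPM in control replicates a to d. The groups were well apart, with the lowest CKO library at 244 CPM and the highest control at 205 CPM. The log2 fold change was 0.64 ± 0.11 (SE; edgeR adjusted p = 0.006471), or 1.55-fold, with 0.73 in replicates a and b (adjusted p = 0.005081) and 0.56 in replicates c and d (adjusted p = 0.07821). Pdia4 passed with each of the 8 libraries left out in turn (adjusted p at most 0.04047) and without both control a and CKO c (0.67, adjusted p = 0.04659). It was the only gene of the 30 called in each of these fits.

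The other disulfide isomerases did not change with Pdia4. Pdia6, the highest of the 30 genes per kilobase, had 1163, 1067, 862 and 955 CPM in CKO replicates a to d, against 1003, 1138, 1376 and 1100 CPM in control replicates a to d. The groups overlapped, and CKO c was the lowest and control c the highest. The log2 fold change was -0.19 ± 0.14 (SE; edgeR adjusted p = 0.4235), with 0.04 in replicates a and b and -0.41 in replicates c and d. P4hb, the classical protein disulfide isomerase, had 241 ± 19.5 CPM in CKO and 234 ± 22.0 CPM in control lenses (SD, n = 4 each). Pdia3, the isomerase that works with the lectin chaperones, had 400 ± 21.9 CPM in CKO and 372 ± 37.2 CPM in control lenses (SD, n = 4 each). Their log2 fold changes were 0.04 and 0.11, with 95% intervals from -0.19 to 0.27 for P4hb and from -0.10 to 0.32 for Pdia3.

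The lectin chaperones calreticulin and calnexin hold glycoproteins in the ER until they fold. Calr had 464, 491, 459 and 503 CPM in CKO replicates a to d, against 466, 472, 450 and 502 CPM in control replicates a to d. These values were close in all 8 libraries, and the 95% interval of the log2 fold change went from -0.20 to 0.24. Canx had 411, 359, 395 and 403 CPM in CKO replicates a to d, against 392, 418, 524 and 511 CPM in control replicates a to d. Controls b, c and d were above all CKO libraries, control a was not, and the log2 fold change of -0.22 ± 0.11 (SE) did not pass (edgeR adjusted p = 0.2186). Of the 6 isomerases and lectin chaperones, 1 was higher and 0 lower, by edgeR, DESeq2 and limma-voom alike and also at an unadjusted p under 0.05. Of all genes, 6.5% were higher in edgeR and 13.9% unadjusted, and in either direction DESeq2 called 16.8% and limma-voom 11.9%.

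Within ER-associated degradation, Edem3 and Herpud1 were lower and no gene was higher. Edem3 (ENSMUSG00000043019, chr1:151755371-151822051, plus strand), which trims mannose from misfolded glycoproteins, had 92.7, 90.5, 94.6 and 93.4 CPM in CKO replicates a to d, against 105, 122, 127 and 129 CPM in control replicates a to d. The CKO libraries lay within a narrow band below every control, and control a was the closest control. Edem3 had a log2 fold change of -0.38 ± 0.09 (SE; edgeR adjusted p = 0.02436), with -0.33 in replicates a and b and -0.41 in replicates c and d. It was between -0.44 and -0.35 with a library left out, and passed without CKO a, control a or control c but not without each of the other 5 (adjusted p up to 0.0961). The related Edem1 had 21.6 ± 1.55 CPM in CKO and 21.5 ± 3.33 CPM in control lenses, and Edem2 had 23.5 ± 1.65 CPM in CKO and 21.8 ± 4.21 CPM in control lenses (SD, n = 4 each). Their log2 fold changes were 0.01 and 0.12.

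Herpud1 (ENSMUSG00000031770, chr8:94386438-94395377, plus strand), an ER membrane protein that organises the ubiquitin ligase complex around Syvn1, had 33.7, 33.7, 35.2 and 28.7 CPM in CKO replicates a to d, against 46.1, 56.3, 33.9 and 47.6 CPM in control replicates a to d. Control c lay among the CKO libraries and the other 3 controls were above them all. The log2 fold change was -0.47 ± 0.13 (SE; edgeR adjusted p = 0.04446), with -0.62 in replicates a and b (adjusted p = 0.01489) and -0.31 in replicates c and d (adjusted p = 0.3879). It was between -0.59 and -0.39 with a library left out, and passed only without CKO c or without control c (adjusted p otherwise up to 0.176). Herpud1 was the call closest to the threshold, and limma-voom (adjusted p = 0.05281) and RLE scaling in edgeR (adjusted p = 0.05551) left it above the threshold. RLE scaling called 4 of the 30 genes and 10.1% of all genes, and limma-voom 4 of the 30 and 11.9% of all.

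Syvn1, the ubiquitin ligase of ER-associated degradation, had 34.6, 35.6, 43.1 and 37.5 CPM in CKO replicates a to d, against 49.96, 49.92, 38.4 and 52.4 CPM in control replicates a to d. Control c was again the low control and lay below CKO c. Its log2 fold change was -0.34 ± 0.12 (SE; edgeR adjusted p = 0.1048), and -0.46 without control c (adjusted p = 0.007356). Syvn1 shares 1.87% of its exon length with Mrpl49 on the opposite strand.

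Sel1l, the scaffold that binds the Syvn1 ligase, had 77.2 ± 6.56 CPM in CKO and 73.7 ± 5.94 CPM in control lenses, and Os9, the lectin that delivers glycoproteins to it, had 66.2 ± 2.998 CPM in CKO and 65.6 ± 7.24 CPM in control lenses (SD, n = 4 each). Their log2 fold changes were 0.07 for Sel1l and 0.02 for Os9. The derlins are membrane proteins of the retrotranslocation channel. Derl1 had 58.7 ± 1.15 CPM in CKO and 64.8 ± 10.2 CPM in control lenses, and Derl2 had 42.8 ± 3.83 CPM in CKO and 52.0 ± 10.02 CPM in control lenses (SD, n = 4 each). Their log2 fold changes were -0.14 and -0.27, with overlapping groups. Derl3 had 0.735, 0.685, 0.316 and 0.543 CPM in CKO replicates a to d, against 0.459, 0.397, 0.584 and 0.887 CPM in control replicates a to d. It had 169 counts in all 8 libraries, and its 95% interval of the log2 fold change went from -1.10 to 0.92. A difference within these bounds could not be told from none. Of the 10 genes of ER-associated degradation, 0 were higher and 2 were lower by edgeR and DESeq2 (1 lower by limma-voom). In edgeR 4.01% of all genes were lower, and in either direction DESeq2 called 16.8% and limma-voom 11.9%. Before adjustment, at p under 0.05, 0 of the 10 were higher and 4 lower, where 12.6% of all genes were lower. The median log2 fold change of the 10 was -0.11, beside -0.03 over all genes.

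Per kilobase of exon the 30 genes covered a wide range of levels. Pdia6 was the highest, with 270 ± 34.95 CPM per kilobase in CKO and 308 ± 42.3 in control lenses. Calr followed with 166 ± 7.39 in CKO and 164 ± 7.46 in control lenses, and Derl3 was the lowest with 0.286 ± 0.0941 in CKO and 0.292 ± 0.109 in control lenses (SD, n = 4 each). In the control libraries, the levels per kilobase of Pdia6, Calr and Pdia3 followed in that order with each range apart from the next. The ranges of Pdia3, Hspa5, Canx, Hsp90b1, P4hb and Pdia4 overlapped from each gene to the next, and a gap separated Pdia4 from Dnajb11. In CKO lenses the level per kilobase of Hspa5 was 138 ± 6.35, against 103 ± 19.7 in control lenses, and that of Pdia4 was 114 ± 9.52, against 73.4 ± 8.81 in control lenses (SD, n = 4 each). The sensors were low among the 30 genes. Atf6 had 4.59 ± 0.316 CPM per kilobase in CKO and 5.31 ± 0.532 in control lenses. Ern1 had 1.603 ± 0.194 in CKO and 1.90 ± 0.274 in control lenses (SD, n = 4 each). Among all genes tested, the control level per kilobase was at percentile 61.2 for Atf6 and 38.7 for Ern1.

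**Figure D3:**
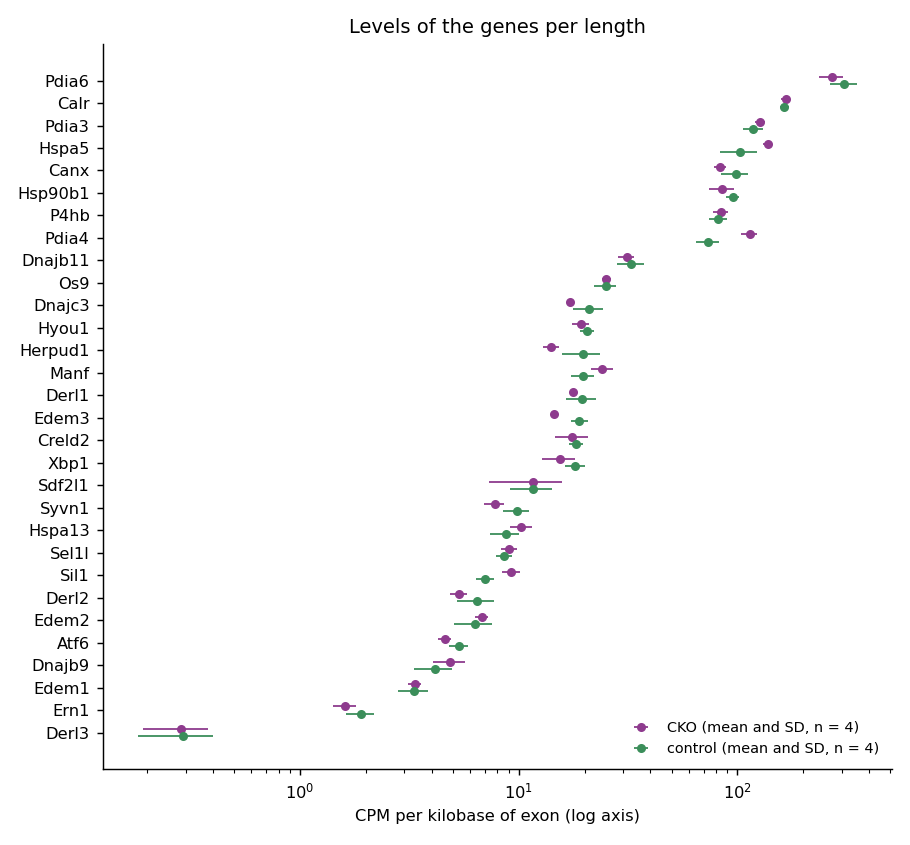
Level of each of the 30 genes in CPM per kilobase of exon on a log axis, as the mean and SD of 4 CKO libraries (purple, above) and 4 control libraries (green, below), ordered by the control mean. Pdia6 and Calr lead, the 6 genes from Pdia3 down to Pdia4 form the next band, and the sensors Atf6 and Ern1 and the derlin Derl3 are near the bottom.

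The 30 genes together had 4847 ± 139 CPM in CKO and 4893 ± 398 CPM in control lenses (SD, n = 4 each), with overlapping groups. As a share of all counts, before TMM scaling, they took 0.51% ± 0.021 in CKO and 0.464% ± 0.0223 in control libraries. These raw shares did not overlap, with 0.496%, 0.490%, 0.519% and 0.536% in CKO replicates a to d, against 0.450%, 0.440%, 0.478% and 0.487% in control replicates a to d. The summed level of lens fibre markers, which include crystallins, is given above for both groups, and its part in the raw share was not tested. Scaling by library totals alone raised the median log2 fold change of all genes by 0.15, and with it 5 of the 30 genes were higher (Hspa5, Pdia4, Sil1, Hspa13 and Manf) and 0 lower, where 11.1% of all genes passed. In that scaling Edem3 had a log2 fold change of -0.23 and Herpud1 of -0.32, still below 0. Over all genes the share of higher calls was 89.1% with library totals and 61.8% with TMM.

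Ratios between genes within a library do not depend on such scaling. The pairs given here were picked after the values were seen and have no test. The ratio of Hspa5 to Hsp90b1, the Hsp70 and the Hsp90 of the ER, both per kilobase, was 1.33, 1.52, 1.91 and 1.81 in CKO replicates a to d, against 0.953, 0.933, 1.18 and 1.24 in control replicates a to d. The lowest CKO ratio was above the highest control ratio. The ratio of Pdia4 to Pdia6 per kilobase was 0.400, 0.358, 0.483 and 0.460 in CKO replicates a to d, against 0.256, 0.216, 0.233 and 0.252 in control replicates a to d. These groups were also apart, by more than the range within the controls. The ratio of Edem3 to Edem1 per kilobase averaged 4.37 ± 0.319 in CKO and 5.76 ± 0.752 in control lenses, and that of Hspa5 to Hyou1 averaged 7.18 ± 0.455 in CKO and 5.04 ± 1.09 in control lenses (SD, n = 4 each).

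**Figure D4:**
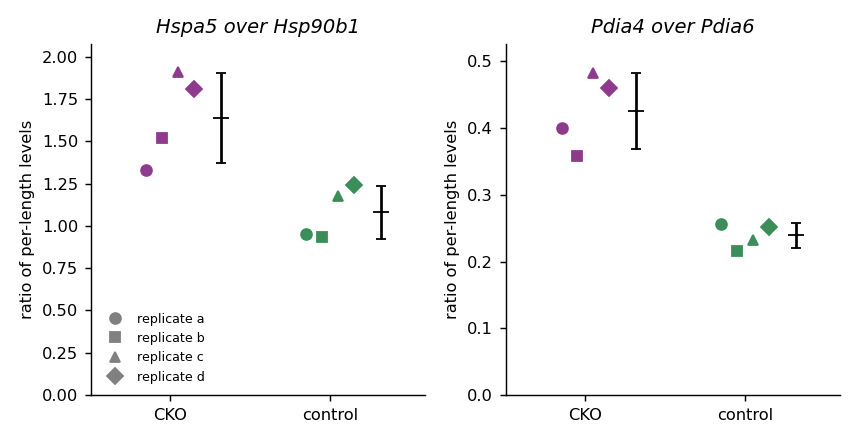
Ratio of Hspa5 to Hsp90b1 (left) and of Pdia4 to Pdia6 (right), both as levels per kilobase of exon, in each library (points, marked by replicate), with the mean and SD of the 4 libraries of each group (black). In both panels each CKO library is above each control, with means of 1.64 in CKO and 1.08 in control for the left pair and of 0.425 in CKO and 0.239 in control for the right pair.

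Replicates a and b, and replicates c and d, come from separate runs of the study's records, although no label calls them batches, and the fits therefore carry a term for these sets. All 5 genes that passed had the same sign in both sets, but they were picked by the fit of both sets, which favours this. Of the 30 genes, 18 had the same sign in both sets and 12 had opposite signs, and the medians were 0.01 in the first set and -0.01 in the second. Fitted alone, the first set gave 5 calls (Hspa5, Pdia4 and Manf higher, Herpud1 and Syvn1 lower), where 8.63% of all genes passed. The second gave 0 in edgeR, where 4.99% of all genes passed. At an unadjusted p under 0.05 the first set gave 5 higher and 5 lower, beside 24.8% of all genes. By the same measure the second set gave 2 higher (Pdia4 and Sil1) and 4 lower (Xbp1, Dnajc3, Edem3 and Derl2), beside 24.5% of all genes. DESeq2 and limma-voom were not run on single sets. A test of the difference itself, the interaction of genotype and set in edgeR, called 0 of the 30 genes (lowest adjusted p = 0.1897, for Manf) and 0 of all genes. At an unadjusted p under 0.05 it gave 3 of the 30 (Dnajc3, Manf and Pdia6), against 16.4% of all genes. Without control d, which leaves 1 control in the second set, it called 3 of the 30 (Dnajb11, Edem2 and Pdia6) and 1984 of all genes.

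**Figure D5:**
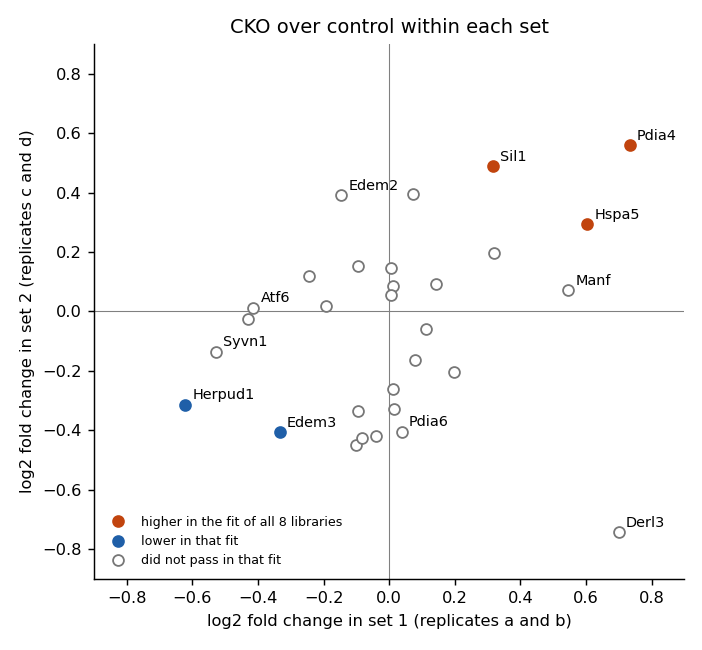
Log2 fold change, CKO over control, of each of the 30 genes in the set of replicates a and b (horizontal axis) and in the set of replicates c and d (vertical axis), from separate fits; filled points passed in the fit of all 8 libraries. Hspa5, Pdia4 and Sil1 are in the upper right and Edem3 and Herpud1 in the lower left, while Derl3 (0.70 and -0.74) is at the lower right.

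The genes with the ER stress response element shown above did not move together. Of these 9, 1 was higher (Hspa5) and 0 were lower, the median log2 fold change was -0.17, the range went from -0.34 for Syvn1 to 0.44 for Hspa5, and 7 of the 9 were fitted below 0. Of the 15 genes whose window was searched and held no such element, 1 was higher (Pdia4) and 2 were lower (Edem3 and Herpud1), with a median of 0.01. These 15 include Herpud1 and Dnajb11, which hold the element II form. Of all 16241 genes tested, 6.5% were higher and 4.01% lower, the median was -0.03, and 8632 were fitted below 0. With only 9 and 15 genes, the counts of calls do not stand apart from these shares. Canx, Dnajc3, Hsp90b1, Pdia6 and Syvn1 each hold the element 5′ of the start, as Hspa5 does, and had fold changes on the other side of 0, none of which passed.

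The wider pathway was read through 6 lists with none of the 30 genes. Of the 12 genes of the PERK arm and the integrated stress response, 0 passed in edgeR, DESeq2 called 1 lower and limma-voom 0. Of all genes, 10.5% passed in edgeR, 16.8% in DESeq2 and 11.9% in limma-voom. Before adjustment, at p under 0.05, 0 were higher and 3 lower, where 12.6% of all genes were lower. The median log2 fold change was -0.19 over all libraries. It was -0.28 in replicates a and b and 0.26 in replicates c and d, so the medians of the list differed in sign. Atf4, the factor translated when PERK is active, had 123, 145, 136 and 124 CPM in CKO replicates a to d, against 174, 196, 140 and 160 CPM in control replicates a to d. CKO b overlapped control c, and the log2 fold change was -0.33 ± 0.11 (SE; edgeR adjusted p = 0.07367). Ddit3, the ATF4 target that encodes CHOP, had 9.76, 8.67, 8.29 and 7.41 CPM in CKO replicates a to d, against 13.3, 14.6, 10.9 and 9.08 CPM in control replicates a to d. Control d was below CKO a, and the log2 fold change was -0.47 ± 0.14 (SE; edgeR adjusted p = 0.05152). Eif2ak3, which encodes PERK, had a log2 fold change of -0.10 (edgeR adjusted p = 0.7825). In replicates a and b the log2 fold changes were -0.49 for Atf4, -0.62 for Ddit3 and 0.09 for Eif2ak3. In replicates c and d they were -0.16 for Atf4, -0.31 for Ddit3 and -0.25 for Eif2ak3.

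Among the 23 other ER folding enzymes, 2 were higher and 1 was lower, close to the 6.5% and 4.01% of all genes. Fkbp10, a peptidyl-prolyl isomerase that acts on collagen, had 36.9, 47.2, 42.7 and 38.9 CPM in CKO replicates a to d, against 20.2, 22.5, 23.8 and 15.9 CPM in control replicates a to d, groups that were far apart. Its log2 fold change was 1.01 ± 0.14 (SE; edgeR adjusted p = 0.002036), larger than that of any of the 30 genes. Clgn, a calnexin homologue best known from the testis, was lower with 9.01 ± 0.869 CPM in CKO and 15.8 ± 2.47 CPM in control lenses (log2 fold change -0.80, edgeR adjusted p = 0.003041). Mesd, a chaperone of the LDL receptor family, was higher with 70.9 ± 4.02 CPM in CKO and 55.6 ± 2.29 CPM in control lenses (log2 fold change 0.35, edgeR adjusted p = 0.02858; SD, n = 4 each). The ER oxidases Ero1a (-0.16) and Ero1b (0.51, adjusted p = 0.1031) and the cyclophilin Ppib (0.02) did not pass.

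Of 20 other genes of ER-associated degradation, 0 were higher and 1 was lower, where 4.01% of all genes were lower. Before adjustment, at p under 0.05, 0 were higher and 7 lower, where 12.6% of all genes were lower, and the median log2 fold change was -0.22, beside -0.03 over all genes. Ubxn4, an ER adaptor of the ATPase Vcp, had 73.1 ± 2.20 CPM in CKO and 90.0 ± 2.64 CPM in control lenses (SD, n = 4 each), with no overlap and a log2 fold change of -0.30 (edgeR adjusted p = 0.04425). Vcp itself, which pulls ubiquitinated proteins out of the membrane, had a log2 fold change of -0.30 that did not pass (adjusted p = 0.1335). In edgeR 0 genes passed of the 10 other UPR transducers tested (Ern2 was not tested), of the 19 translocon and signal recognition genes and of the 14 cytosolic heat shock genes. Of all genes, 10.5% passed in edgeR, 16.8% in DESeq2 and 11.9% in limma-voom. At an unadjusted p under 0.05, 1 transducer and 1 translocon gene were lower and 2 heat shock genes were higher, where 12.6% of all genes were lower and 13.9% higher, and DESeq2 and limma-voom called 0 in each of these 3 lists. The log2 fold change was 0.00 for the translocon channel gene Sec61a1 and -0.17 for the cytosolic chaperone gene Hspa8.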

How the data were processed

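The authors deposited 1 table of raw read counts per Ensembl gene for all 8 libraries, and nothing in it was normalised. The submitters' processing notes name CASAVA, HISAT2, featureCounts and genome build mm10. Versions, the annotation release and strand setting: not given in the sources used here. Without a known strand setting, reads of overlapping genes cannot be told apart.

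Of 43432 gene IDs, 42548 matched GENCODE M21; the other 884 were tested too and held no more than 0.105% of a library. The filter was filterByExpr by genotype, with a minimum count of 10 and a minimum total of 15. The robust quasi-likelihood test of edgeR 4.0.16 (R 4.3.3) was fitted over the whole table with TMM scaling, set and genotype, and adjusted p-values (Benjamini-Hochberg, called under 0.05) cover all 16241 genes tested. Adjusted p-values without a named tool come from this test. Fits of single sets have genotype as the only term. CPM per kilobase divides CPM by the union of annotated exons. Each library counted as 1 replicate, as labelled. No pair within a genotype was as close as counting noise (chi-square per degree of freedom at least 15.3), so none was treated as a library deposited again; this does not show that libraries come from separate animals.

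Alternatives were other scalings and filters, DESeq2 1.42.0, limma-voom (limma 3.58.1), other terms, offsets for length and GC trends (mgcv 1.9.3), and subsets of libraries. The code was tested on simulated data. Named genes are the 30, Mettl3, genes that passed in 6 lists of neighbouring pathways, and 9 genes of those lists named whatever their result. The members and lists were chosen with earlier results of these data known. Promoter windows are from the RefSeq table of GRCm38.p6; in 18 of 25 windows the bases after the start lay in a GENCODE transcript of the gene.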

Additional observations from a re-analysis of the deposited data

Results flagged for a closer look

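In 62 comparisons of the 4 libraries of a group, made for each of the 30 genes and for Mettl3, 3 values stood apart from the other libraries of their group by more than the critical value of Dixon's test for 4 samples, taken as a share of the group's whole range. Chance alone flags about 1 in 20 such groups. Xbp1 had 63.1 CPM in CKO b, above the other CKO libraries by 0.892 of their range, and 50.1 CPM in control a, below the other controls by 0.939 of their range. Hspa13 had 58.6 CPM in CKO b, below the other CKO libraries by 0.875 of their range. Neither gene passed the test between genotypes.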

How the results depend on the processing

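The 5 calls became 3 without the set term (Hspa5 and Herpud1 lost), 1 with a replicate block (Pdia4), 0 in replicates c and d alone, and 1 (Pdia4) without control a and CKO c, a fit chosen after seeing the data because these libraries had the most retinal marker counts of their groups. Leaving out each library in turn gave 1 to 6 calls. Over all genes, the 1706 calls became 665 (of 16241 tested) with the block, 858 in replicates c and d alone, 462 without control a and CKO c, and 503 to 2553 with a library left out. Removing length and GC trends gave 7 calls among the 30 genes, with Hspa13 and Syvn1 added. The labels do not say whether same-letter libraries of the genotypes are matched. Their deviations from the group means, which include set differences, had correlations of -0.06, 0.09, -0.19 and 0.28 for a to d. Why calls were lost with the block was not tested. The interaction called 0 of the 30 genes with most libraries left out and 3 (Dnajb11, Edem2 and Pdia6) without control d, where 1984 of all genes were called. In a separate fit of all 8 libraries with no filter, it called 0 of the 30 genes and 918 of all genes. Signs reversed only for genes that did not pass; the cause was not tested. With library totals alone the log2 fold change was 0.051 for Hyou1, 0.076 for Dnajb11, 0.13 for Sdf2l1, 0.094 for Creld2, 0.016 for Derl1 and 0.0605 for Derl3. In replicates a and b alone it was 0.20 for Sdf2l1, 0.0145 for Hsp90b1, 0.078 for Creld2, 0.038 for Pdia6, -0.15 for Edem2, 0.012 for Derl1, 0.70 for Derl3 and -0.097 for Os9. In replicates c and d alone it was 0.013 for Atf6, 0.018 for Hyou1, 0.12 for Dnajb11 and -0.0598 for Edem1. Without control a and CKO c it was 0.085 for Sdf2l1 and 0.12 for Derl3. With length and GC trends removed it was -0.0002 for P4hb, -0.0091 for Edem1 and -0.051 for Os9, and limma-voom gave -0.0064 for Edem1. With a library left out, values that changed sign went from -0.31 to 0.19 for Sdf2l1, -0.19 to 0.0152 for Creld2, -0.016 to 0.094 for P4hb, -0.018 to 0.051 for Calr, -0.0297 to 0.063 for Edem1, -0.032 to 0.19 for Edem2, -0.28 to 0.21 for Derl3 and -0.029 to 0.0604 for Os9. Derl3 had no adjusted p in DESeq2 and was removed by the filter of 1 CPM in 4 libraries, which left 29 of the 30 genes. The standard error was largest for Derl3 (0.46), the least abundant of the 30 genes. What set the precision of each gene was not tested.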
